A study of Homo sapiens with 2 samples.

Results

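The genes described here are 9 members of the fibroblast growth factor (FGF) system and its neighbour MET: the receptors FGFR1, FGFR2, FGFR3 and FGFR4, the receptor-like FGFRL1, the growth factors FGF2 and FGF11, the FGF-binding protein FGFBP1, and MET. They were chosen by name, with earlier results of these data known, and all 9 are among the 60725 genes of the deposited table. Their transcripts were read from poly(A) RNA-seq libraries of KYSE30-Luc-GFP, an established human esophageal squamous cell carcinoma (ESCC) line that carries luciferase and GFP. The cells were grown in culture and separated on a flow sorter by their surface level of CD44, which binds hyaluronan, and the extremes of that staining were kept. One library came from the CD44 high cells (labelled CD44 Positive) and the other from the CD44 low cells (labelled CD44 Negative). Both groups are the same untreated line with the same reporters, and both fractions come from 1 line. There is 1 library for each group, so the differences have no replicate check, no test could be run, and the 95% intervals describe counting error alone. All ratios put CD44 high cells over CD44 low cells. In bulk RNA, a change in the number of cells that express a gene cannot be told apart from a change in RNA per cell.

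FGF receptors are receptor tyrosine kinases that pair up when an FGF and a heparan sulfate chain bind to them, and they signal through the adaptor FRS2 to the RAS-MAPK and PI3K routes. In FGFR1, FGFR2 and FGFR3 the end portion of the third immunoglobulin loop, which touches the ligand, is encoded by one of a pair of alternative exons called IIIb and IIIc. Epithelial cells typically use IIIb and mesenchymal cells IIIc, and the choice decides which FGFs a receptor binds. MET is the receptor for hepatocyte growth factor (HGF) and shares much of the downstream signalling. In squamous epithelium FGFR3 and FGFR2 are the usual FGF receptors, and amplified FGFR1 is known from squamous carcinomas.

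The receptor transcripts are divided below by their alternative exons, so the pair of FGFR3, the most abundant of these receptors, is shown, 5′ to 3′ on the coding strand. The FGFR3 exons lie at chr4:1802914-1803064 (IIIb, 151 bases) and chr4:1803692-1803836 (IIIc, 145 bases) on the plus strand of GRCh38. Both are coding exons of GENCODE release 44. Capitals mark runs of at least 5 aligned bases that are identical between the IIIb and the IIIc exon.
FGFR3 exon IIIb: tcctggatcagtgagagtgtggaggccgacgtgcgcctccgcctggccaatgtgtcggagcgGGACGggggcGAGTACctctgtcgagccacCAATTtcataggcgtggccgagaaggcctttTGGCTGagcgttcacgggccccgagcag
FGFR3 exon IIIc: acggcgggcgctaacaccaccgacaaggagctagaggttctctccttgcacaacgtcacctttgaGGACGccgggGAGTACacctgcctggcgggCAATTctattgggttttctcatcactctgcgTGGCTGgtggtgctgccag

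The alternatives differ in much of their sequence. IIIb and IIIc of FGFR3 had identical bases in 77 of 136 aligned positions (56.6%).

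Sequencing gave 21633236 expected counts for CD44 high cells and 22859583 for CD44 low cells, where an expected count is the number of reads assigned to a gene, with reads that match several genes divided among them. CD44 itself had 22819 counts in CD44 high cells and 9727 in CD44 low cells, 2.35-fold higher (2.29 to 2.41), in the direction of the labels. Of 7 epithelial and squamous markers, EPCAM, CDH1, TP63 and the simple keratins KRT8, KRT18 and KRT19 were all well measured, with summed TPM of the list at 5936 in CD44 high cells and 5102 in CD44 low cells, of which KRT8 and KRT18 made up the larger part. Of these 6 genes, EPCAM, KRT8 and KRT18 were higher and TP63, KRT19 and CDH1 lower in CD44 high cells beyond counting error. TP63, a regulator of squamous identity, was the one called lower by the 2-fold rule given below, with 2551 counts in CD44 high cells and 5287 in CD44 low cells. KRT19 had a log2 ratio of -0.67 and CDH1, the adhesion protein E-cadherin, of -0.46. The part of these markers in the receptor differences was not tested. The basal keratin KRT5 had 0 and 8 counts, so this defining basal marker was absent or nearly so. The markers of fibroblasts, endothelium and leukocytes were at or near 0, with summed TPM of 0.38 and 0.06 for the endothelial list and 0.35 and 0.17 for the leukocyte list. COL1A1 was the only fibroblast marker above 21 counts, with 175 and 292, and DCN, LUM and COL1A2 were at 0 in both libraries. Genes encoded by mitochondria took 7.50% of the counts of the CD44 high library and 14.003% of those of the CD44 low library. That share enters TPM (RSEM's level of a transcript relative to its length and to the sum over the library), on which the median log2 ratio of all measured genes was 0.17, against 0.01 in the scaled counts.

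Among the 9 genes, the receptors FGFR1 and FGFR3 were the ones called by the rule below, in opposite directions. FGFR1 was higher in CD44 high cells and FGFR3 was lower, while FGFR4, FGFRL1, FGF2, FGF11, FGFBP1 and MET stayed within 1.5-fold. FGFR2 had the log2 ratio furthest from 0 (-1.85). It had only 11 counts in CD44 high cells and 41 in CD44 low cells, too few for a call. A gene was called when it had 50 or more counts in one of the libraries, differed by 2-fold or more, and had a counting interval that excludes equality. Of the 9 genes, 8 had 50 counts in a library, and 1 of these was called higher and 1 lower. Over all 12371 genes with that depth, 1.24% were called higher and 4.21% lower, 5.46% in all. At 1.5-fold the same counts of 1 and 1 among the 8 stood beside 4.96% higher and 10.5% lower of all genes, 15.4% in all. A single gene makes up the count in each direction, so nothing particular to the family is read from these counts. The median log2 ratio of the 9 genes was -0.23.

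**Figure D1:**
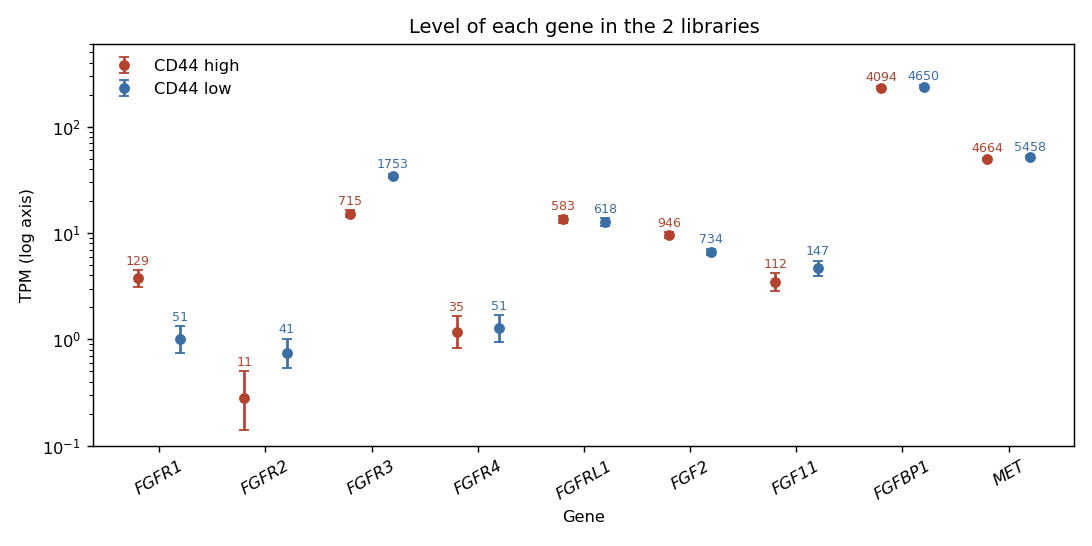
Level of each gene in TPM (vertical axis, log scale) in the CD44 high (red, left of each pair) and the CD44 low library (blue, right), with 95% Poisson counting intervals and the expected count printed above each point. FGFR1 stands higher in CD44 high cells (3.75 against 1.01 TPM) and FGFR3 lower (15.2 against 34.5 TPM), while FGFBP1 and MET nearly coincide.

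FGFR3 (ENSG00000068078, chr4:1793307-1808872) was the most abundant of the receptors for FGF in both fractions. It had 715 counts in CD44 high cells and 1753 in CD44 low cells, and 15.2 against 34.5 TPM. Its log2 ratio was -1.29 (-1.42 to -1.17), which is 2.45-fold lower in the CD44 high library (2.24 to 2.68). The counting intervals of its level, 14.1 to 16.4 TPM in CD44 high cells and 32.9 to 36.2 TPM in CD44 low cells, do not overlap.

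FGFR1, on chromosome 8 (ENSG00000077782), is the receptor most used by mesenchymal cells. It had 129 counts in CD44 high cells and 51 in CD44 low cells, and 3.75 against 1.01 TPM. The log2 ratio was 1.33 (0.86 to 1.84), or 2.53-fold higher in the CD44 high library (1.82 to 3.57). The gene is measured by few reads in both fractions, and its level in CD44 high cells was still below that of FGFR3, FGFRL1 and FGF2. When at least 200 counts were required, FGFR1 could not be called.

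FGFR2 (ENSG00000066468, chr10:121478334-121598458), whose IIIb form is the receptor of keratinocytes for FGF7 and FGF10, was barely measured. It had 11 counts in CD44 high cells and 41 in CD44 low cells, and 0.28 against 0.75 TPM. The ratio was 3.72-fold lower in the CD44 high library with a wide interval (1.88 to 8.03), and the gene did not reach the 50 counts asked of a call. With a minimum of 20 counts it was called lower. On the log2(TPM + 1) scale, which shrinks ratios of low genes, its log2 ratio was -0.45, against -1.85 in the counts.

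FGFR4 (ENSG00000160867, chr5:177086886-177098144) prefers FGF19 together with the coreceptor klotho beta in the liver. It had 35 counts in CD44 high cells and 51 in CD44 low cells, and 1.18 against 1.28 TPM. The interval of its log2 ratio of -0.54 included equality (-1.21 to 0.11), so a difference was not detectable at this depth. FGFRL1 (ENSG00000127418, chr4:1009936-1026897) binds FGFs but has no kinase domain. It had 583 and 618 counts, and 13.5 against 12.7 TPM, in the CD44 high and the CD44 low library. Its log2 ratio of -0.08 (-0.25 to 0.08) also included equality, and its sign turned on the TPM scale (0.08).

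Taken as shares of the 4 signalling receptors, the composition shifted within each library, a measure that does not depend on scaling between libraries. FGFR1 made up 18.4% of the summed TPM of FGFR1 to FGFR4 in CD44 high cells and 2.69% in CD44 low cells. FGFR3 made up 74.5% in CD44 high cells and 91.9% in CD44 low cells. In expected counts the share of FGFR1 was 14.5% (exact interval 12.2 to 17.0) in CD44 high cells and 2.69% (2.01 to 3.52) in CD44 low cells. The share of FGFR3 in counts was 80.3% (77.6 to 82.9) in CD44 high cells against 92.5% (91.2 to 93.6) in CD44 low cells. FGFR3 thus remained the main receptor transcript in both libraries, at 4.06 times the TPM of FGFR1 in CD44 high cells and 34.2 times in CD44 low cells. The summed level of the 4 receptors was 20.4 TPM in CD44 high cells and 37.6 TPM in CD44 low cells. FGFR2 and FGFR4 together were the smaller part of both sums, with FGFR2 at 1.37% and 2.0% and FGFR4 at 5.78% and 3.41% of the TPM in the CD44 high and the CD44 low library.

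Transcripts of the receptors were then divided by the exon they carry in the third immunoglobulin loop. Those with no annotated coding frame were kept as a class of their own, even where they hold one of the exons. RSEM, the program the authors used, divides reads among transcripts by estimation, and the intervals do not cover that step. Of 116 transcripts listed for the 9 genes, 47 were above 0 TPM in a library, and 2 of these 47 have no counterpart in GENCODE release 44.

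In FGFR3, IIIb exceeded IIIc in both fractions. The IIIb transcript FGFR3-202 stood at 4.35 TPM in CD44 high cells and 11.2 TPM in CD44 low cells, with 269.58 and 770.42 expected counts. It was 2.87-fold lower in the CD44 high library (2.49 to 3.30). The IIIc transcript FGFR3-208 went the other way. It stood at 0.75 TPM in CD44 high cells and 0.37 TPM in CD44 low cells, with 45.33 and 25.09 counts, 1.80-fold higher (1.08 to 3.05). Its share of the gene's TPM was 4.92% in CD44 high cells and 1.07% in CD44 low cells, while FGFR3-202 took 28.6% and 32.4%. The retained intron FGFR3-207, counted below with the transcripts that have no coding frame, also carries the IIIb exon (1.18 and 2.15 TPM). The IIIc exon was therefore a small part of FGFR3 in both libraries, and its count in the CD44 low library was under 50.

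The transcript of FGFR3 with the most TPM was FGFR3-203, which carries neither exon. In release 44 it also lacks the next exon, chr4:1804330-1804520, which encodes the membrane-spanning segment, so that its product would be a receptor without a membrane anchor. It had 6.46 TPM in CD44 high cells and 14.5 TPM in CD44 low cells, 2.50-fold lower (2.21 to 2.85). Its share of the gene was nearly equal, at 42.4% in CD44 high cells and 42.0% in CD44 low cells. Transcripts of FGFR3 with no annotated coding frame, such as retained introns, had 3.21 and 8.19 TPM in the CD44 high and the CD44 low library, 21.1% and 23.7% of the gene. All forms of FGFR3 except IIIc and 1 transcript that is not in release 44 were thus lower in CD44 high cells.

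Both exon forms of FGFR1 were higher in CD44 high cells. The IIIb transcript FGFR1-207 had 1.11 TPM in CD44 high cells and 0.47 TPM in CD44 low cells, with 46.26 and 21.6 counts, 2.13-fold higher (1.23 to 3.63). The IIIc transcripts together had 0.96 TPM and 0.37 TPM, with 61.19 and 27.62 counts, 2.21-fold higher (1.37 to 3.53). The IIIb share of the gene was 29.5% in CD44 high cells and 46.5% in CD44 low cells, and the IIIc share was 25.5% and 36.6%. In counts the IIIb share was 35.9% in CD44 high cells and 42.4% in CD44 low cells, and the IIIc share was 47.4% and 54.2%. IIIb thus stood above IIIc by TPM and below it by counts in both libraries, so the order of the exon forms depends on the unit. Other transcripts, which carry neither exon, had 0.83 TPM in CD44 high cells and 0.10 TPM in CD44 low cells, from 15.63 and 0.65 counts. The largest by TPM, FGFR1-229 (0.65 and 0 TPM), also lacks the exons before and after the pair. FGFR1-242 (0.14 and 0 TPM, from 10.97 and 0 counts) has both of those neighbouring exons. Transcripts with no annotated coding frame had 0.86 and 0.07 TPM, from 5.9 and 1.12 counts. Among them, FGFR1-216 carries the IIIc exon (0.38 and 0.03 TPM) and FGFR1-215 the IIIb exon (0.25 and 0 TPM). These remaining transcripts are included in the 3.75 and 1.01 TPM of FGFR1 in the CD44 high and the CD44 low library. By TPM they made up the larger part of the FGFR1 difference, and in counts the smaller part. The 18.4% of FGFR1 among FGFR1 to FGFR4 by TPM in CD44 high cells includes them too. Because these transcripts rest on few reads, the size of the FGFR1 difference in TPM is uncertain.

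FGFR2 had so few reads that its forms are given as values only. The IIIb transcript FGFR2-215 was listed at 0 in CD44 high cells and had 17.85 counts (0.37 TPM) in CD44 low cells. The IIIc transcript FGFR2-224 had 9.12 counts (0.14 TPM) in CD44 high cells and was listed at 0 in CD44 low cells. FGFR2-213, which lacks both alternative exons and the exon before them, was listed at 0 in CD44 high cells and had 23.15 counts in CD44 low cells. With 11 and 41 counts divided by estimation among 25 listed transcripts, a form at 0 in 1 library is not read as a difference.

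**Figure D2:**
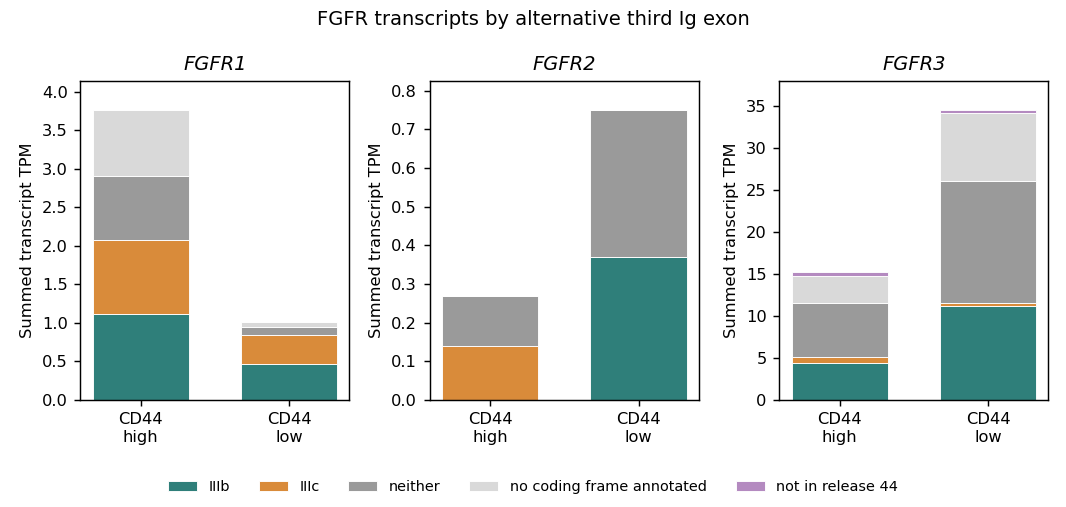
Summed transcript TPM (vertical axis, from 0, with its own scale for each gene) of FGFR1, FGFR2 and FGFR3 in the CD44 high library (left bar) and the CD44 low library (right bar), divided by alternative exon. The FGFR3 bar is lower in CD44 high cells in all its large parts, and the FGFR1 bar is higher in both exon forms and in the remaining transcripts. FGFR2 stays under 1 TPM and rests on 11 counts in CD44 high and 41 in CD44 low cells, too few to compare its exons.

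Transcripts of 4 proteins that act on the exon choice of FGFR2 were all measured, and none was called at 2-fold or at 1.5-fold. Their median log2 ratio was -0.07, beside 0.01 for all genes. ESRP1, which promotes the epithelial IIIb exon, had 8802 counts in CD44 high cells and 9822 in CD44 low cells, a log2 ratio of -0.16 (-0.20 to -0.11). PTBP1, a repressor of exon IIIb, had 10578 and 8048 counts, a log2 ratio of 0.40 (0.35 to 0.44). In level, ESRP1 stood at 190.6 TPM in CD44 high cells and 197.9 TPM in CD44 low cells, so this epithelial splicing factor was abundant in both fractions.

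FGF2 and FGF11, the 2 growth factors of the set, stayed within 1.5-fold. FGF2 (ENSG00000138685, chr4:122826708-122898236), a broad ligand of the IIIc receptors that leaves cells without a signal peptide, had 946 counts in CD44 high cells and 734 in CD44 low cells, and 9.55 against 6.64 TPM. It was 1.29-fold higher in the CD44 high library (1.17 to 1.42), a log2 ratio of 0.37, and was not called. Both of its main transcripts had the higher value in CD44 high cells, at 6.48 against 4.51 TPM for one that is not in release 44 and 2.98 against 2.13 TPM for FGF2-201. FGF2 overlaps the antisense gene NUDT6, which had 100 and 88 counts, and the sources used here do not say whether reads were counted by strand.

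FGF11 (ENSG00000161958, chr17:7438273-7444937) belongs to the FGF homologous factors, which stay inside the cell and do not activate FGF receptors. It had 111.86 counts in CD44 high cells and 147.32 in CD44 low cells, and 3.48 against 4.70 TPM. Its log2 ratio was -0.39 (-0.76 to -0.03), with an interval that only just excluded equality. The counts are not whole because reads are shared with overlapping transcribed loci on the same strand, so the level is uncertain. Among its transcripts FGF11-203 had 0.67 TPM in CD44 high cells and 1.51 TPM in CD44 low cells, while FGF11-201 had 1.22 and 1.01 TPM.

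FGFBP1 (ENSG00000137440, chr4:15935569-15938740), a secreted carrier that frees FGFs from the matrix and is typical of squamous epithelium, had the highest level of the 9 genes. It had 4094 counts in CD44 high cells and 4650 in CD44 low cells, and 233 against 239 TPM. The log2 ratio was -0.18 (-0.24 to -0.12) in the counts and -0.03 on the TPM scale. At 24.4 times the TPM of FGF2 in CD44 high cells and 36.0 times in CD44 low cells, the carrier exceeded the ligand in both fractions.

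MET (ENSG00000105976, chr7:116672390-116798386) followed FGFBP1 in level. It had 4664 counts in CD44 high cells and 5458 in CD44 low cells, and 49.9 against 51.7 TPM. Its log2 ratio was -0.23 (-0.28 to -0.17), 1.17-fold lower in the CD44 high library, and -0.05 on the TPM scale. Nearly all of it was the transcript MET-202, with 47.7 TPM in CD44 high cells and 50.3 TPM in CD44 low cells. Since FGFR3 was lower, MET stood at 3.28 times the TPM of FGFR3 in CD44 high cells and 1.5 times in CD44 low cells.

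By TPM, the order in the CD44 high library was FGFBP1, MET, FGFR3, FGFRL1, FGF2, FGFR1, FGF11, FGFR4 and FGFR2. Of these neighbours, FGFR3 and FGFRL1 had overlapping counting intervals, and so did FGFR1 and FGF11. In the CD44 low library the first 5 places were the same, followed by FGF11, FGFR4, FGFR1 and FGFR2, and the last 3 had intervals that overlapped with their neighbours. FGFR1 thus stood 6th of 9 in CD44 high cells and 8th of 9 in CD44 low cells.

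**Figure D3:**
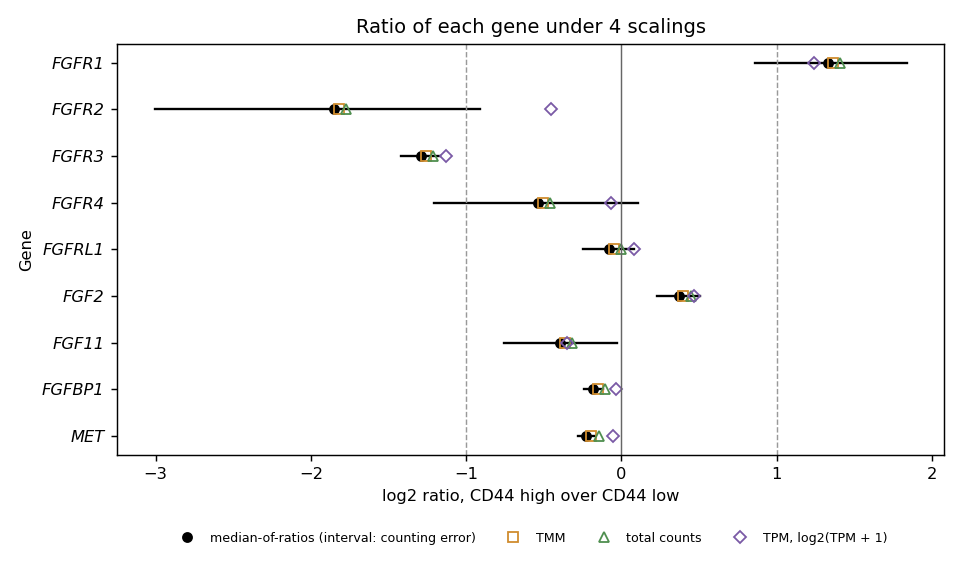
log2 ratio between CD44 high and CD44 low cells (horizontal axis) of the 9 genes, from counts scaled by median-of-ratios (black, with the 95% counting interval) and under TMM, total counts and TPM (open symbols), with dashed lines at 2-fold. FGFR1 lies beyond 2-fold on the right and FGFR3 on the left under all 4 scalings, FGFR2 lies beyond it in the counts but at -0.45 on the log2(TPM + 1) scale, and the other 6 lie between the lines.

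The receptors were placed among other receptor tyrosine kinases, of which 28, the 4 with enough counts from this family included, had 50 counts in a library. FGFR1 had the second highest log2 ratio of the 28, after AXL, and FGFR3 the third lowest, after EPHA3 and INSR. MET was 11th from the highest. Of the other 24, 1 was called higher and 2 lower at 2-fold, and 2 higher and 7 lower at 1.5-fold. Over all genes the shares higher and lower were 1.24% and 4.21% at 2-fold, and 4.96% and 10.5% at 1.5-fold. Over the 27 other kinases with at least 20 counts, the median log2 ratio was -0.38, and -0.05 on the TPM scale. Beyond counting error, 18 of the 27 were lower and 3 higher, and 6 had intervals that included equality. AXL, a receptor linked to mesenchymal states, had 9560 counts in CD44 high cells and 2661 in CD44 low cells (log2 ratio 1.85). ROR1, a receptor for WNT5A, had 837 and 484 counts (0.79). EPHA3, an ephrin receptor, had 13 counts in CD44 high cells and 70 in CD44 low cells (-2.38), and INSR, the insulin receptor, had 139 and 348 (-1.32). INSR reached -0.10 on the TPM scale, so its difference depended on the unit. By level, MET ranked 7th of the 28 in both libraries, and FGFR3 ranked 13th in CD44 high cells and 10th in CD44 low cells. FGFR1 ranked 21st in CD44 high cells and 27th in CD44 low cells.

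**Figure D4:**
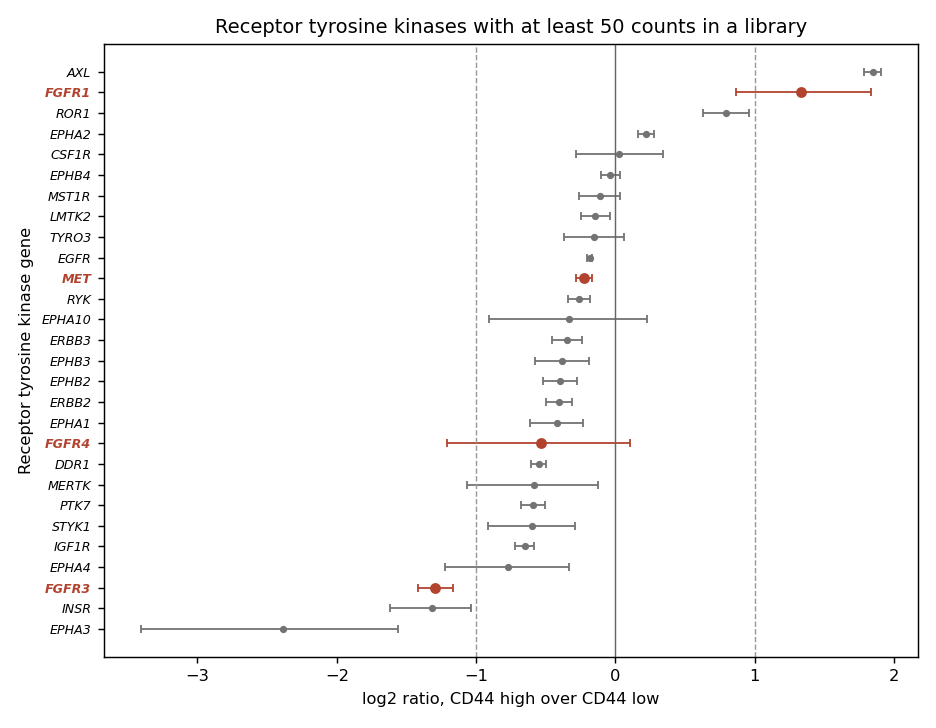
log2 ratio between CD44 high and CD44 low cells (horizontal axis), with 95% counting intervals, of the 28 receptor tyrosine kinases with at least 50 counts in a library, ordered by ratio, with FGFR1, FGFR3, FGFR4 and MET in red. FGFR1 has the second highest ratio and FGFR3 the third lowest, while MET lies among the many kinases close to 0.

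Of the other 20 FGF genes, 14 had 0 counts in both libraries and 3 reached 50 counts. FGF1, which can bind every FGF receptor, was called higher, with 129 counts in CD44 high cells and 37 in CD44 low cells, 3.49-fold (2.41 to 5.18). FGF13 and FGF12 are FGF homologous factors like FGF11. FGF13 was called lower at 2-fold, with 110 counts in CD44 high cells and 228 in CD44 low cells (log2 ratio -1.05), and FGF12 was lower at 1.5-fold, with 74 and 124 counts (-0.74, and -0.17 on the TPM scale). The 3 FGF homologous factors with 50 counts, FGF11 included, had negative log2 ratios, and the ligands FGF1 and FGF2 had positive ones. Their relative FGF14 had 6 counts in CD44 high cells and 4 in CD44 low cells (0.53, -1.49 to 2.85). With so few genes, no rule by type of FGF is read from these signs. The carrier FGFBP3 had 25 and 29 counts and the coreceptor KL 1 and 1, so none of the 4 genes of that list reached 50 counts.

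Genes for heparan sulfate, the sugar that FGFs need for binding, were mostly within 1.5-fold. Of 12 heparan sulfate proteoglycans 7 had 50 counts, and 1 was called lower and none higher, with a median log2 ratio of -0.39 over the 8 with at least 20 counts. The called gene was GPC4, a glypican, with 246 counts in CD44 high cells and 991 in CD44 low cells, 4.02-fold lower (3.50 to 4.65). GPC3, named after its values had been seen, had 3 and 33 counts. Of 12 enzymes of heparan sulfate synthesis and sulfation with 50 counts, none was called at 2-fold and 1 was lower at 1.5-fold, with a median of -0.04. That one was HS6ST2, a sulfotransferase, with 1655 counts in CD44 high cells and 2601 in CD44 low cells (-0.65).

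Signalling genes next to the receptors showed little difference as a list. Of 14 adaptors and proximal signalling genes with 50 counts, none was called at 2-fold, and the median log2 ratio was -0.03 over the 15 with at least 20 counts. PIK3R1, a regulatory subunit of PI3K, was lower at 1.5-fold, with 669 counts in CD44 high cells and 1038 in CD44 low cells (-0.63).

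Feedback inhibitors and target genes, whose transcripts usually follow FGF and MAPK activity, moved in both directions. Of 15 measured, 1 was called lower and none higher at 2-fold, 3 lower and 1 higher at 1.5-fold, and the median log2 ratio was -0.13. FLRT3, a membrane protein that binds FGF receptors, had 248 counts in CD44 high cells and 739 in CD44 low cells, 2.98-fold lower (2.57 to 3.45). SPRY1 and SPRY4 are both Sprouty inhibitors of receptor signalling. SPRY1 had 373 counts in CD44 high cells and 614 in CD44 low cells (-0.72), and SPRY4 had 756 and 443 (0.77), so these 2 relatives differed in sign. DUSP6, a phosphatase of ERK, had 906 counts in CD44 high cells and 1433 in CD44 low cells (-0.66).

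Around MET, none of 12 measured genes was called at 2-fold or at 1.5-fold, and their median log2 ratio was -0.17. HGF, its ligand, had 0 counts in both libraries, where a count of 0 allows up to 3 counts in each. SPINT2, an inhibitor of the proteases that activate HGF, had 7951 counts in CD44 high cells and 7674 in CD44 low cells (0.05). ADAM10, a sheddase of membrane receptors, had 5199 and 6106 (-0.23). Beyond counting error, 6 of the 12 were lower and 3 higher in CD44 high cells, with log2 ratios from -0.45 to 0.18. MET and the measured genes of this list thus stayed within 1.5-fold.

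**Figure D5:**
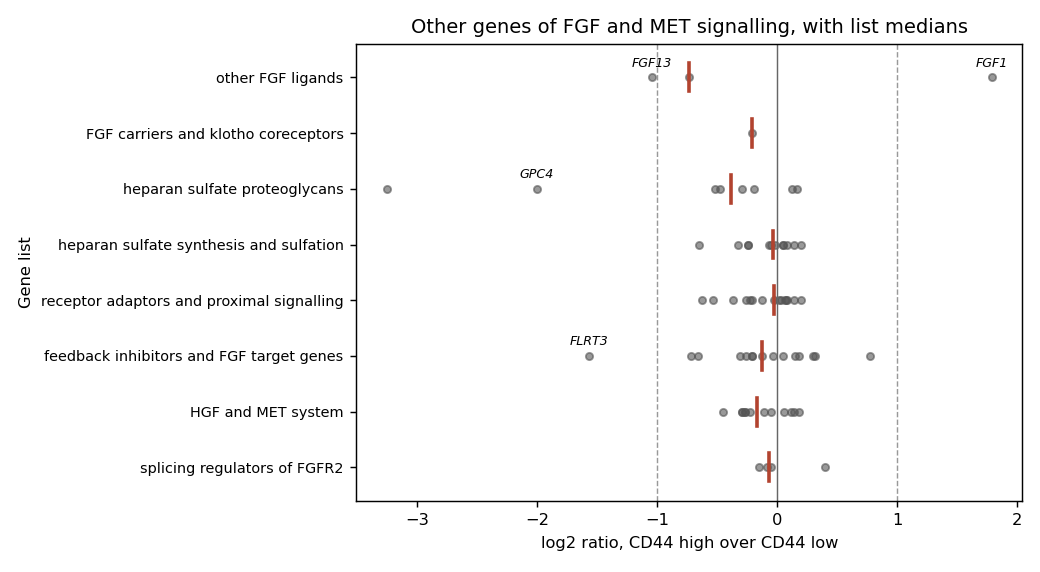
log2 ratio between CD44 high and CD44 low cells (horizontal axis) of the other genes of FGF and MET signalling with at least 20 counts in a library, by list, with the list median as a red bar, dashed lines at 2-fold and the called genes named. The medians lie between -0.74 (other FGF ligands, 3 genes) and -0.03 (adaptors), and FGF1, FGF13, GPC4 and FLRT3 are the called genes.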

How the data were processed

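RNA of both sorted fractions was sequenced from poly(A) libraries, mapped by the authors to GRCh38 with STAR and quantified with RSEM. The authors deposited gene and transcript tables that hold, per library, expected counts divided by a size factor, and TPM. The authors' own comparison (fold changes, posterior probabilities and FDR from EBSeq) stands in the same tables and was not used. Whether molecular identifiers were used to remove duplicates, and the annotation release, are not given in the sources used here.

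Unscaled counts were restored from the smallest increment of each column (0.01 of a count), then scaled by median-of-ratios factors (0.999 and 1.00), and compared as log2 ratios with a prior count of 0.5. Counting intervals are exact conditional binomial (Clopper-Pearson) on rounded counts, and intervals of TPM levels are exact Poisson. The median log2 ratio of a list used genes that had 20 or more counts in either library. Exons were taken by transcript identifier from GENCODE release 44, and the exon sequences of FGFR2 are not reported here. Of the 116 transcripts, 114 were found there, 92 of them with the same ends. The members and the lists were chosen with earlier results of these data known. Named genes were all 9 members, CD44 and, per list, up to 4 genes with the largest ratio among those called at 1.5-fold, otherwise the 2 with the largest counts. HGF, GPC3 and the genes at 0 were named beyond that rule. The statistics were tested on simulated data that held counting error alone. That test does not cover spread between sorts or the division of reads by RSEM. Alternatives were TMM (edgeR 4.0.16 in R 4.3.3), total counts with and without mitochondrial genes, TPM on the log2(TPM + 1) scale, a prior count of 5, thinning, and other thresholds. TPM without mitochondrial genes, and receptor shares in counts, were added after seeing the data. Computations used Python 3.11.15 with numpy 2.4.6, scipy 1.17.1 and Biopython 1.88.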

Additional observations from a re-analysis of the deposited data

How the results depend on the processing

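No paired analysis was possible because each group has 1 library. The calls of FGFR1 as higher and FGFR3 as lower were the same under TMM, total counts and TPM. A gene called at 2-fold is always called at 1.5-fold, so that limit does not check these calls. It added no other gene of the 9. With at least 200 counts, 0 of the 9 genes were higher and FGFR3 alone was lower. With at least 20 counts, 2 were lower, FGFR2 and FGFR3. Over all genes, 154 higher and 521 lower became 275 and 830 with at least 20 counts, 63 and 233 with at least 200 counts, and 613 and 1296 at 1.5-fold. On the TPM scale, where no counting interval applies, 435 were higher and 490 lower, so that 47.0% of called genes were higher, against 22.8%. Of 63 alternative values for the log2 ratios of the 9 genes, 54 lay within the counting interval of the main value, 9 lay outside it, and no called gene changed sign. The values outside it belong to FGFR2, FGFR3, FGFBP1 and MET, and the cause was not tested. FGFR3 had -1.13 on the TPM scale. MET had -0.15 with total counts, -0.05 with TPM and -0.29 with TPM without mitochondrial genes. Taken by counts in place of TPM, the FGFR3 IIIb share was 37.7% in CD44 high cells and 43.9% in CD44 low cells, and the FGFR1 IIIc share 47.4% and 54.2%. Without replicates, the spread between sorts was not measured, and FGFR1, FGFR2 and FGFR4 rest on 11 to 129 counts.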
